A study of Homo sapiens with 2 samples.

Results

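The diacylglycerol kinases are the enzymes that phosphorylate diacylglycerol to phosphatidic acid. The 10 family members examined here were taken from the 50868 genes of the deposited table by their symbols, DGKA, DGKB, DGKD, DGKE, DGKG, DGKH, DGKI, DGKK, DGKQ and DGKZ, and each symbol had 1 entry. The family was selected on the counts of 1 of its members, DGKH, which differed strongly between the libraries compared, so the DGKH values are a description and support nothing further. The study sequenced mRNA from 2 cultures of cells labelled HepG2, a human line from a liver cancer. The parental culture is labelled WT and was untreated. The resistant culture is labelled sorafenib resistance, has sorafenib as its treatment label, and had been selected in sorafenib, a multikinase inhibitor used against liver cancer, from 2.5 µM in steps of 0.5 µM up to 7 µM. Each group had 1 library. No value therefore has an SD, no test of the conditions was possible, and the names parental and resistant stand for the libraries so labelled.

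Diacylglycerol is released in the membrane when phospholipase C cleaves phosphoinositides downstream of receptors. It recruits proteins with C1 domains, among them protein kinases C and D and the RASGRP exchange factors that load RAS. Diacylglycerol kinases end that signal, and their product phosphatidic acid is both a signalling lipid and the first intermediate in the resynthesis of phosphatidylinositol. In the liver, diacylglycerol is also the direct precursor of stored triglyceride and of the major membrane phospholipids. The family is divided into classes by domain structure. Type I (DGKA, DGKB, DGKG) carries calcium-binding EF hands, type II (DGKD, DGKH, DGKK) a pleckstrin homology domain and a split catalytic domain, and type III (DGKE) little beyond the C1 and catalytic domains. Type IV (DGKI, DGKZ) carries ankyrin repeats and a MARCKS-like segment, and type V (DGKQ) has an additional C1 domain. The type II enzyme eta, the product of DGKH, has been described as an activator of RAF and ERK signalling downstream of the EGF receptor.

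The parental counts summed to 18067146 and the resistant counts to 16811907. Levels are given as CPM, counts per 1000000 counts of a library, with its total corrected by the trimmed mean of M values (TMM). Where no count was found, the upper limit was set at 3 counts, which is 0.166 CPM for the parental library and 0.179 CPM for the resistant one. All intervals cover 95% and counting error only, and molecules copied by PCR are not independent. Of 12 hepatocyte markers, 10 had 0 counts in both libraries, among them ALB (albumin) and AFP (alpha-fetoprotein), and the 12 together had 3 and 4 counts. HepG2 is known to express these genes, so the label of the line is not borne out by its defining markers in either library.

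DGKH lies at chr13:42040036-42256578 on the plus strand of GRCh38. GENCODE 29 gives it 10 transcripts, 6 of them protein-coding with 5 separate start sites, and the longest coding transcript has 30 exons and a coding length of 3660 bases. RefSeq lists 2 starts, 8578 bases apart, with 34 and 105 bases to the nearest GENCODE start. The deposited count pools all transcripts, so it cannot be divided between these starts. The 250 bases before each RefSeq start are printed as a description. The difference at this gene could fall on either of these starts or on other annotated ones. The window before the first start of DGKD, the closest relative, follows for comparison. Sequences are from RefSeq on GRCh38.p14, plus strand, 5′ to 3′, and capitals mark matches to the GC box GGGCGG on either strand.
DGKH first start, chr13:42039820-42040069: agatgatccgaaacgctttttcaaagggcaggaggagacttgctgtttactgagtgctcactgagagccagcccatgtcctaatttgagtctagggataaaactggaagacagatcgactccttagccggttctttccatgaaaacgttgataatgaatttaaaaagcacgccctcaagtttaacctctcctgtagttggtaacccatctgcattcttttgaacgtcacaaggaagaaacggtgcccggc
DGKH second start, chr13:42048398-42048647: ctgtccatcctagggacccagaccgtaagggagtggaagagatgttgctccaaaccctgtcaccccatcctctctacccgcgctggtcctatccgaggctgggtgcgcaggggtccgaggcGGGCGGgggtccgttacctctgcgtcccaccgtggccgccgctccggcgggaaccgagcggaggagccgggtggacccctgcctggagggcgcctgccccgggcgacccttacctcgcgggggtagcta
DGKD first start, chr2:233354244-233354493: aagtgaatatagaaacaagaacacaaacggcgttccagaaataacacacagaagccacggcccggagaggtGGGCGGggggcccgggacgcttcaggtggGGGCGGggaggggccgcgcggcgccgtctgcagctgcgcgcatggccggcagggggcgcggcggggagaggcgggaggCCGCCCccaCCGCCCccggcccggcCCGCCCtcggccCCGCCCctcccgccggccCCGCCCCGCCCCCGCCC

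The DGKH windows differed in base composition. The first had a GC content of 45.6% with 9 CpG dinucleotides and no GC box. The second had a GC content of 70% with 23 CpG dinucleotides and 1 GC box. The first DGKD window was richer still, at 77.2% GC with 32 CpG dinucleotides and 9 overlapping or separate GC box matches. The other DGKD windows, not printed here, were poorer than the second DGKH window. They had 59.6% and 53.6% GC, 5 and 8 CpG dinucleotides, and no GC box. Over 34943 RefSeq windows of the same length the median GC content was 58%, and 42.5% held a GC box. The TATA box TATAAA, the AP-1 site TGANTCA and the TEAD site GGAATG, searched on both strands, had no match in these windows. They occur in 10.8%, 6.59% and 11.9% of all windows. No measurement of binding or of start site use was made, so these matches only describe the letters.

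DGKH was the 1 member with a large difference between the libraries. Its parental count was 144 and its resistant count 842, or 7.95 CPM (6.70 to 9.36) and 50.2 CPM (46.9 to 53.7). The resistant level was 6.32-fold the parental level (5.29 to 7.60), and the log2 ratio, computed with 1 CPM added to both levels, was 2.52. That ratio ranked 8 among the 14686 genes that reached 1 CPM in at least 1 library, which are called measured here. On the deposited FPKM, with 1 added to both values, the DGKH log2 ratio was 1.25. In the authors' deposited table DGKH has a log2 fold change of 2.65 and is marked UP, as are 1.26% of the 21518 genes compared there, and no other diacylglycerol kinase carries a mark. That table rests on the same libraries.

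**Figure D1:**
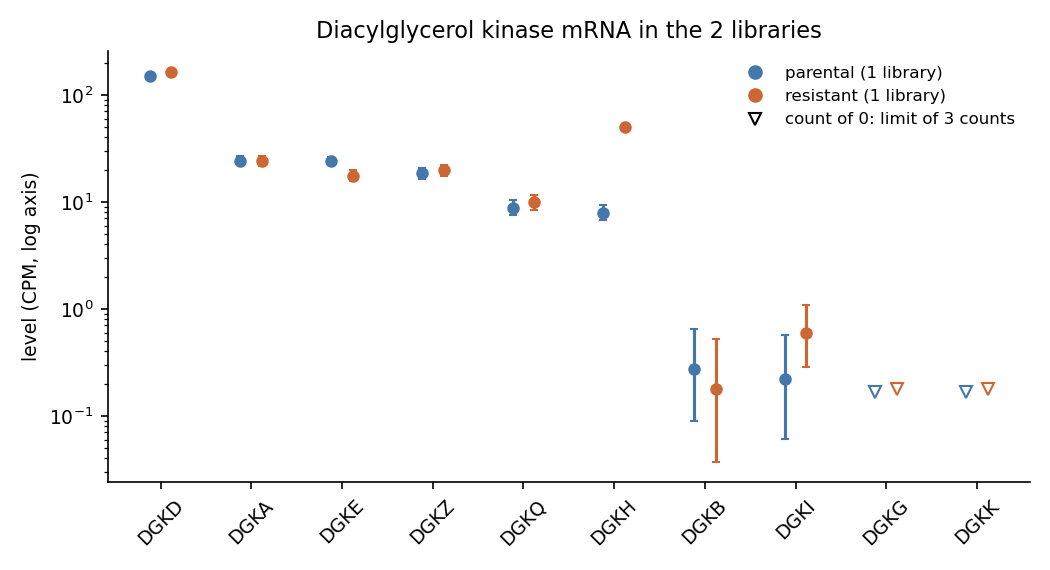
Level of each diacylglycerol kinase in the parental (blue) and resistant (orange) library, in CPM on a log axis, with 95% counting intervals and open triangles at the 3-count limit where no count was found. DGKH goes from 7.95 to 50.2 CPM, whereas the points of the other measured members lie close together and DGKG and DGKK have no count.

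Of the 10 members, 6 were measured, 2 had a few counts and 2 had none. Genes whose log2 ratio reached 1 or -1, a doubling or halving on that scale, were said to meet the size rule. It was met by DGKH alone, at 2.52, and the next largest absolute ratio was that of DGKE at -0.43. Among all measured genes 1.31% were higher and 0.994% lower by this rule, 2.3% in either direction. Since DGKH was the reason for choosing the family, nothing is read from its passing. The median log2 ratio of the 6 measured members was 0.10, and 0.09 without DGKH, against -0.0018 for all measured genes.

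The other type II kinases were DGKD and DGKK. DGKD (delta, chr2:233354507-233472104), which shares the domain layout of eta, was the most abundant member, with 2716 and 2735 counts or 149.9 and 163 CPM. Its resistant level was 1.09-fold the parental level (1.03 to 1.15), a difference beyond counting error but small beside that of DGKH. DGKK (kappa, chrX:50365409-50470738) had 0 counts in both libraries. Type II as a class therefore rested on 2 genes, and together they had 158 and 213 CPM.

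Among type I kinases, DGKA (alpha, chr12:55927319-55954027), the calcium-regulated form best known from T cells, had 439 and 404 counts. These correspond to 24.2 parental and 24.1 resistant CPM, a ratio of 0.995 (0.867 to 1.14). DGKA overlaps PYM1 on the opposite strand by 353 exonic bases, and PYM1 had 415 and 366 counts. DGKB (beta, chr7:14145049-14974777), a brain form, had 5 and 3 counts, a ratio of 0.649 whose interval ran from 0.101 to 3.33. DGKG (gamma, chr3:186105668-186362237) had no count in either library. Counts of the type I class thus came almost entirely from DGKA, and no difference between the libraries was detectable in it at this depth.

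DGKE (epsilon, chr17:56834099-56869567), the type III kinase that prefers arachidonoyl diacylglycerol and serves the phosphatidylinositol cycle, had 437 and 295 counts. Its level was 24.1 parental and 17.6 resistant CPM, 1.37-fold lower (1.18 to 1.59), with a log2 ratio of -0.43. It was the 1 member whose interval lay below a ratio of 1. In GENCODE 29 an exon of TRIM25, a gene on the opposite strand with 3076 and 3012 counts, overlaps DGKE by 80 exonic bases. The coordinates deposited for TRIM25, chr17:56887909-56914038, start beyond the end of DGKE. No source used here says whether counting used strand. The sum of both genes, most of it counts of TRIM25, had a log2 ratio of 0.03.

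DGKZ (zeta, chr11:46332905-46380554), the nuclear type IV kinase, had 334 and 329 counts, or 18.4 and 19.6 CPM, a ratio of 1.06 (0.912 to 1.24). DGKI (iota, chr7:137381037-137847092), the other type IV kinase, had 4 and 10 counts, a ratio of 2.70 (0.779 to 11.8). Its level stayed below 1 CPM in both libraries. DGKQ (theta, chr4:958887-986895), the type V kinase, had 160 and 166 counts, or 8.83 and 9.90 CPM, a ratio of 1.12 (0.897 to 1.40). The intervals of DGKA, DGKQ and DGKZ all held 1. Those of DGKH, DGKD and DGKE did not, as was the case for 42.2% of all measured genes, so an interval away from 1 is common between these libraries.

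**Figure D2:**
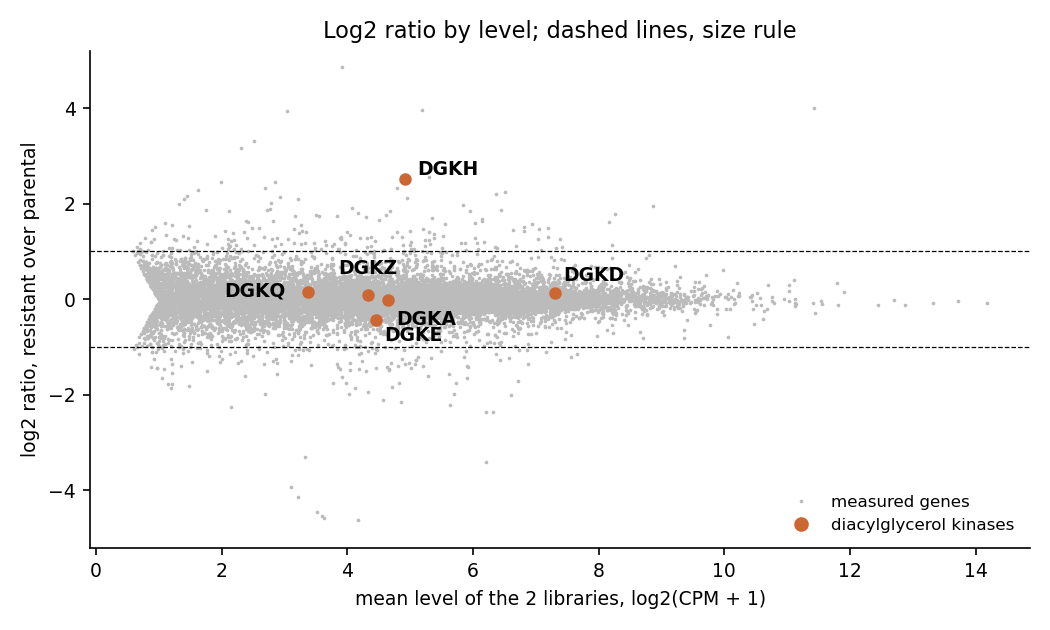
Log2 ratio of resistant over parental (vertical axis) against the mean level as log2(CPM + 1) (horizontal axis) for measured genes (grey) and the measured diacylglycerol kinases (orange), with dashed lines at the size rule. DGKH stands at 2.52 and the other 5 members between -0.43 and 0.15; 1 gene lies outside the vertical axis.

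The family as a whole was somewhat higher in the resistant library through DGKH. The 10 genes together had 4239 parental and 4784 resistant counts, or 234 and 285 CPM, a ratio of 1.22 (1.17 to 1.27). Without DGKH they had 226 and 235 CPM, a ratio of 1.04 (0.996 to 1.09). DGKH made up 3.40% of the family's counts in the parental library (2.87 to 3.99) and 17.6% in the resistant library (16.5 to 18.7). DGKD held the largest share in both, 64.1% (62.6 to 65.5) and 57.2% (55.8 to 58.6). These shares are exact binomial intervals and depend on gene length, since longer genes gather more counts. Bulk counts cannot tell fewer cells expressing a gene from less RNA per cell.

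Per length, DGKH moved from the lowest of the measured members to the second place. Counts were divided here by the merged exon length of each gene in GENCODE 29 and given as CPM per kb. In the parental library DGKD stood at 15.3 CPM per kb. It was followed by DGKA at 2.37 (2.16 to 2.60), DGKE at 2.21 (2.004 to 2.42), DGKQ at 1.78 (1.51 to 2.07) and DGKZ at 1.71 (1.53 to 1.90) CPM per kb. DGKH came last among the measured members at 0.405 CPM per kb (0.341 to 0.476). By merged exon length its interval did not meet that of DGKZ. Neighbours from DGKA to DGKZ in this order had overlapping intervals.

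In the resistant library DGKD stood at 16.7 CPM per kb and DGKH was next at 2.56 (2.39 to 2.74). By merged exon length DGKH did not differ beyond counting error from DGKA at 2.36 CPM per kb (2.13 to 2.60). DGKQ followed at 1.99 (1.70 to 2.32), DGKZ at 1.82 (1.63 to 2.03) and DGKE at 1.61 (1.43 to 1.80) CPM per kb, each overlapping its neighbour. The DGKD level was 37.9-fold that of DGKH in the parental library and 6.53-fold in the resistant library. DGKH thus remained below its type II relative in both, by a factor that depends on the length used. In the resistant library the deposited FPKM was 9.59 for DGKD, 2.20 for DGKH and 0.872 for DGKA. The closeness of DGKH and DGKA therefore rests on the merged exon length. DGKB had 0.029 parental and 0.019 resistant CPM per kb. DGKI had 0.014 parental and 0.038 resistant CPM per kb.

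**Figure D3:**
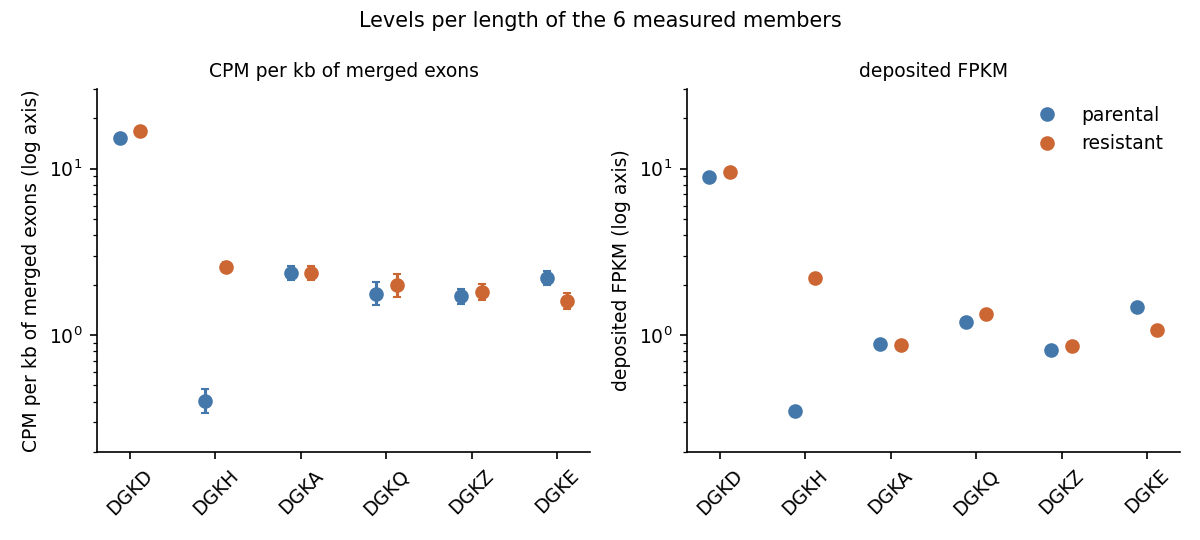
Levels per length of the 6 measured members in the parental (blue) and resistant (orange) library on log axes, as CPM per kb of merged exons with 95% counting intervals (left) and as the deposited FPKM (right). DGKD is highest in both panels and DGKH second in the resistant library, whereas DGKA lies above DGKQ on the left and below it on the right.

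The order of the other members depended on which length was used. For 86.4% of 14616 measured genes the length behind the deposited FPKM equals, within 0.1%, the summed length of all distinct annotated exons, in which overlapping exons count repeatedly. That length was 27572 bases for DGKA, which has 49 transcripts, against 10215 bases of merged exons, a factor of 2.70. Taken with the length behind the FPKM, the factor was 2.10 for DGKZ, 1.74 for DGKD, 1.48 for DGKQ and 1.16 for DGKH. For DGKD that length was 16959 bases, against 16857 bases of summed distinct exons. The median factor over the measured genes was 1.48. In the deposited FPKM the parental order was therefore DGKD, DGKE, DGKQ, DGKA, DGKZ and DGKH, with 8.86 for DGKD and 0.350 for DGKH. DGKA ranked 4 there and 2 per merged exon length. The merged exons of DGKH add up to 19637 bases, whereas its transcript with the longest coding sequence has 4246. Its level per length is therefore lower or higher according to the transcript in use. The same holds for its distance from the other members. Folds between the libraries do not change with the length. The log2 ratio does, because 1 is added to both levels, and for DGKH it was 2.52 on CPM and 1.25 on FPKM.

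Sequence shared with other genes was small for all members but DGKZ. Of the distinct 50-base words in the transcripts of each member, none occurred in another of the 10 members. DGKI, DGKK and DGKQ shared none with any other GENCODE gene, and DGKH shared 2.20%, mostly with FHP1. FHP1, a processed pseudogene at chr13:42255873-42256575, overlaps the last exonic bases of DGKH on the same strand by 292 bases. It had 2 and 8 counts, a ratio of 4.32 (0.863 to 41.8), and the DGKH log2 ratio was 2.51 in the sum of both. DGKG and ETV5 overlap by 164 exonic bases on 1 strand, and the counts of ETV5 are not evidence of DGKG expression. DGKZ shared 15.9% of its words, nearly all with DGKZP1.

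DGKZP1 is a processed pseudogene of DGKZ at chr13:43968424-43971199, on the same chromosome as DGKH. It holds 2727 words, 66.6% of which are also in DGKZ. The deposited table gives it 226 parental and 270 resistant counts, or 12.5 and 16.1 CPM, a ratio of 1.29 (1.08 to 1.55). Reads from the shared stretches may have been assigned to either gene, so the levels of DGKZ and DGKZP1 are uncertain. The DGKZ log2 ratio was 0.09 alone and 0.20 in the sum with DGKZP1, within the size rule both ways.

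The genes around DGKH did not share its difference. Of the 3 protein-coding genes on each side, 3 were measured. VWA8, 78916 bases before DGKH, had 790 and 784 counts, a ratio of 1.07 (0.971 to 1.19). AKAP11, an anchoring protein gene for protein kinase A, starts 15575 bases after DGKH on the same strand. It had 1458 and 1228 counts, a ratio of 0.910 (0.843 to 0.983). NAA16 had 368 and 353 counts, a ratio of 1.04 (0.893 to 1.20). RGCC had 1 and 0 counts, and TNFSF11 and FAM216B had none. Within 5 Mb of DGKH the 35 other measured genes had a median log2 ratio of 0.07, and none met the size rule. The extremes there were PROSER1 at 0.98 and SMIM2-AS1 at -0.35, which were named after their values were seen. Of the 251 other measured genes of chromosome 13, none was higher and 2 were lower by the size rule, with a median of 0.05. By the same rule 1.31% of all measured genes were higher and 0.994% lower. Nothing particular to the region or the chromosome is read from these counts.

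**Figure D4:**
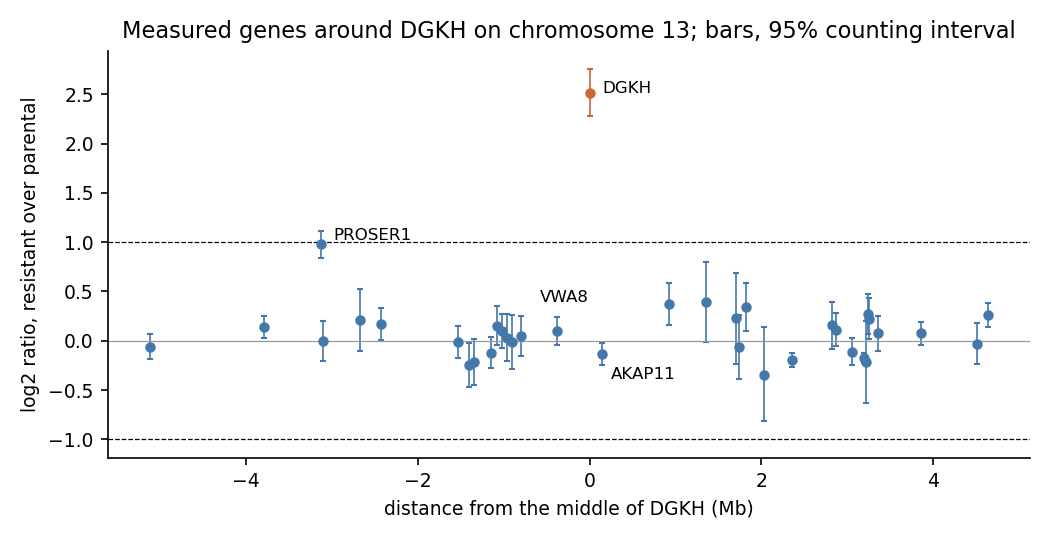
Log2 ratio of resistant over parental for measured genes within 5 Mb of DGKH, by distance in Mb from the middle of DGKH, with 95% counting intervals and dashed lines at the size rule. DGKH stands alone at 2.52 and all other genes lie between -0.35 and 0.98.

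No phospholipase C gene differed by the size rule. Of 13 phospholipases C, which release diacylglycerol from phosphoinositides, 9 were measured. The counting interval of the ratio lay below 1 for 4 of them and held 1 for 5. Over all 14686 measured genes it lay below 1 for 3108 and above 1 for 3095. The phospholipases C had a median log2 ratio of -0.22, against -0.0018 for all measured genes, and a summed level of 496 parental and 439 resistant CPM. PLCD4 had 68 and 32 counts and a log2 ratio of -0.71, and PLCB1, a form driven by G proteins, had 203 and 131 counts and -0.47. Phosphatidate phosphatases make diacylglycerol from phosphatidic acid and so run against the kinases, and phospholipase D makes phosphatidic acid from phosphatidylcholine. Of 10 genes in that list 9 were measured, with a median of -0.07 and intervals above 1 for 1, below 1 for 3 and holding 1 for 5. PLPP3, a membrane phosphatase, stood highest at 0.54 with 208 and 287 counts, and PLPP5 lowest at -0.33.

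The list of other enzymes acting on diacylglycerol held values of either sign. Of 12 genes 9 were measured, with a median of 0.06 and none past the size rule. Not all of them consume diacylglycerol. SGMS1 and SGMS2, sphingomyelin synthases that release it, stood at 0.55 and 0.14, and MOGAT1, MOGAT2 and MOGAT3, which make it, had no count. DAGLA, the lipase that makes 2-arachidonoylglycerol, had 139 and 212 counts and a log2 ratio of 0.65. DGAT2, which esterifies diacylglycerol to triglyceride, had 108 and 58 counts and a ratio of -0.64. The genes listed for the return of phosphatidic acid to phosphatidylinositol and its phosphates were all measured, 15 of 15, with a median of 0.01. PITPNM3 reached 0.83 with 324 and 546 counts, and CDS1, which makes CDP-diacylglycerol from phosphatidic acid, 0.42 with 118 and 152 counts. Among 10 acyltransferases 8 were measured, with a median of -0.18. Most of them act on the way to phosphatidic acid, as AGPAT3 does, which stood at -0.37. MBOAT7, at -0.24, acylates lysophosphatidylinositol instead and does not make phosphatidic acid.

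Among the effectors of diacylglycerol, PRKCE differed most. PRKCE encodes protein kinase C epsilon, a calcium-independent form that has been tied to lipid-induced insulin resistance in the liver. It had 155 and 314 counts, or 8.55 and 18.7 CPM, a ratio of 2.1898 (1.80 to 2.67). Its log2 ratio of 1.05 was just past the size rule, and PRKCE was the 1 gene of all 69 measured genes in these lists to meet it, where 2.3% of all measured genes did, so the count was no higher than the background. PRKCE did not meet it with 2 CPM added in place of 1, or with the deposited FPKM (0.58). The other measured protein kinases C and D lay between -0.63 and 0.21, and the median of the 7 was -0.05. Of 13 further genes, listed as effectors with C1 domains, 8 were measured, with a median of -0.06. UNC13D, among them at -0.02, is a relative of the UNC13 effectors that lacks the C1 domain. RASGRP3, a RAS exchange factor, stood at -0.50 with 72 and 42 counts, and CHN2, a RAC GTPase-activating protein, at -0.29 with 74 and 53 counts.

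**Figure D5:**
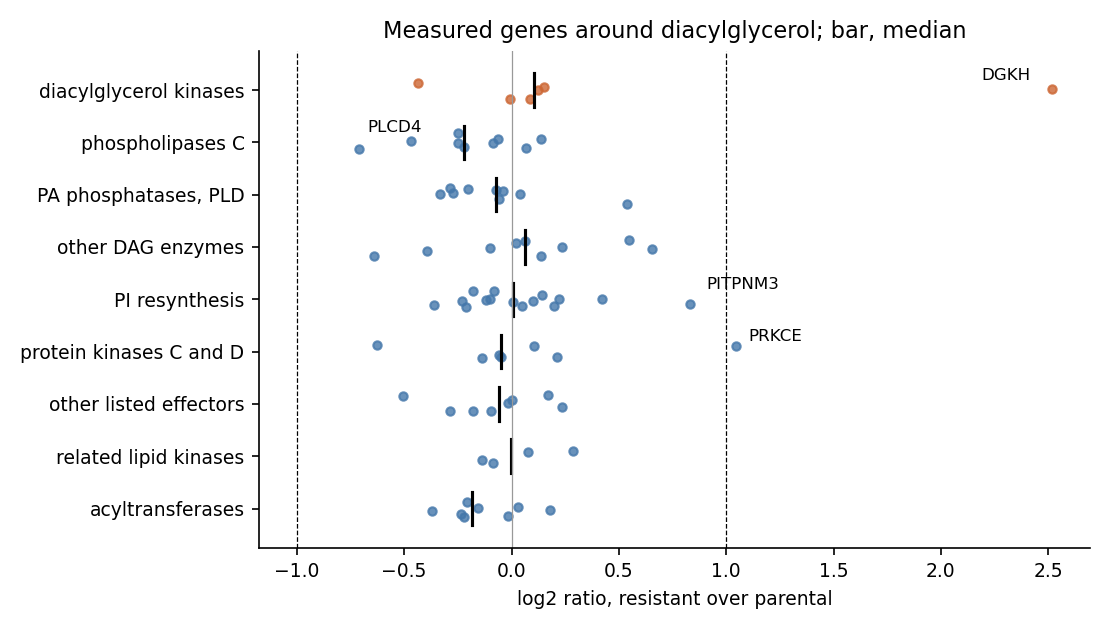
Log2 ratio of each measured gene (horizontal axis) in the diacylglycerol kinase family (orange) and in 8 lists of genes around diacylglycerol (blue), with black bars at the medians and dashed lines at the size rule. DGKH at 2.52 and PRKCE at 1.05 are the points past the rule; PA is phosphatidic acid, PI phosphatidylinositol, PLD phospholipase D and DAG diacylglycerol.

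Lipid kinases that share the catalytic fold without belonging to the family showed no large difference. Of 5 such genes 4 were measured, with a median of -0.0045. SPHK1, a sphingosine kinase, had 528 and 599 counts and a log2 ratio of 0.29, and SPHK2 stood at -0.14. AGK, a mitochondrial acylglycerol kinase, is the 1 gene outside the family to which the deposited annotation gives diacylglycerol kinase activity. It had 329 and 286 counts, a ratio of 0.940 (0.799 to 1.10).

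The deposited annotation places all 10 kinases in 5 narrower KEGG pathways. Over all measured genes 2.3% met the size rule in either direction and 7394 of 14686 had a negative log2 ratio. Each pathway count past the rule includes DGKH, and nothing particular to a pathway is read from it. In glycerolipid metabolism 39 of 60 genes were measured, 28 of them with a negative log2 ratio, and DGKH was the 1 gene past the size rule against a median of -0.16. In phosphatidylinositol signalling, with 83 of 99 measured and a median of 0.01, the genes past the rule were DGKH and CALM3, a calmodulin gene at -1.06. Calmodulin genes encode the same protein but differ in their transcripts. In glycerophospholipid metabolism, with 71 of 96 measured, they were DGKH and PLA2G15, a lysosomal phospholipase gene with 420 and 129 counts and a log2 ratio of -1.48. In phospholipase D signalling, with 98 of 148 measured, PTGFR at 1.64 and RRAS2 at 1.06 were higher with DGKH. GRB2, the adaptor that links receptors to RAS, was lower there and in the choline pathway, at -1.71 with 2918 and 813 counts. These pathways share many genes, and the genes past the rule were named after their values were seen.

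The protein-coding genes whose levels in the libraries were most like those of DGKH were BCL2L2, FMC1-LUC7L2, NUDT16 and TMEM250. Likeness was the Euclidean distance in log2(CPM + 1) over the 2 libraries, which was 0.15, 0.36, 0.47 and 0.53. BCL2L2 had 149 and 759 counts, FMC1-LUC7L2 190 and 824, NUDT16 183 and 654, and TMEM250 189 and 1114. BCL2L2 and FMC1-LUC7L2 share exons with read-through or parent genes on the same strand, so their counts are uncertain. NUDT16 and TMEM250 share none on their own strand. The opposite strand and shared sequence were not examined for these genes. With 2 libraries such likeness means only a similar pair of levels.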

How the data were processed

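Messenger RNA of 1 parental and 1 resistant culture was sequenced, and groups follow the treatment labels. The authors deposited whole-number counts per gene, not normalized. Per the submitters' processing notes, bcl2fastq 2.19, HISAT2 2.0.4 and StringTie 1.3.0 were used on GRCh38; for the counting settings, the strand and the annotation release, no sources used here give a value. The deposited FPKM served as an alternative and for the order of levels per length. A further table, per the file headers, holds the authors' log2 fold change with p-values and q-values. Its p-values compare 1 library with 1 library and were not used.

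Counts were scaled to CPM with TMM factors (edgeR 4.0.16, R 4.3.3) and no model was fitted. The log2 ratio added 1 CPM to both libraries, which understates differences of low genes. Folds use no pseudocount and carry exact Clopper-Pearson 95% intervals of the counts, and levels carry exact Poisson intervals. Genes with a larger CPM of at least 1 counted as measured. Exons and gene types came from GENCODE 29, in which 50111 of 50868 identifiers were found; 50-base words were compared on both strands of its transcripts. RefSeq upstream windows were matched by symbol, for 9 of 10 members.

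Named genes were all members, per list the genes past the size rule or else the 2 with the largest absolute ratio, the 3 coding neighbours of DGKH on each side, genes overlapping a member, and the 4 nearest in level. The members and lists were chosen with earlier results of these data known. The ratio of resistant over parental was tested on counts simulated for 14292 genes with Poisson counting error only. Genes set 4-fold higher were past the size rule in 100% of cases, 2.5-fold higher in 92% and 1.5-fold higher in 0%. Genes set to 0.25 of the parental level were past it in 98% and unchanged genes in 0%. The simulation held no variation between cultures, so this 0% is not the rate for unchanged genes in these libraries. Alternatives covered scaling (with DESeq2 1.42.0 size factors among them), pseudocount, minimum level, FPKM and sums with overlapping genes.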

Additional observations from a re-analysis of the deposited data

How the results depend on the processing

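DGKH was the 1 member past the size rule under all 8 alternatives of scaling, pseudocount, minimum level and unit. Its log2 ratio lay between 2.50 and 2.59 under those of scaling and the lower pseudocount and in the sum with FHP1, and was 2.39 with a pseudocount of 2 CPM. With the deposited FPKM and a pseudocount of 1 it was 1.25, since DGKH has FPKM values near or under the pseudocount. PRKCE was not past the rule with a pseudocount of 2 CPM or with the deposited FPKM, and the number of pathway genes past it was then 0. Over all genes 338 met the rule, and 168 with the deposited FPKM. Among other members DGKE changed sign only in the sum with TRIM25 (0.03), where most counts are those of TRIM25. TRIM25 had 3076 and 3012 counts against 437 and 295 for DGKE. That sum was chosen after seeing the data, as was the sum of DGKZ with DGKZP1. The sum of DGKG with ETV5 (0.33) holds counts of ETV5 alone. The levels of DGKB and DGKI rest on 10 counts or fewer per library. No paired analysis was possible because each group has 1 library.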
